A study of Mus musculus with 11 samples.

Results

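This account covers 35 mouse genes of ribosome biogenesis and of polyamine and pyrimidine synthesis, many of them classical targets of the transcription factor Myc, in dendritic cells from the spleen. The genes were taken from a list and not picked by their values here. For 32 of them the array carries a probeset that names that gene alone, and where a gene has several such probesets the one with the highest mean over the 11 arrays was used. Fbl, Tsr1 and Sms are covered only by probesets that name a second gene as well, so no value is given for them. The 32 measured genes are part of 22180 genes tested.

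The samples were dendritic cells of C57BL/6 mice, sorted from spleen as positive for CD11c and MHC class II to a purity above 95%. The 6 naive arrays are labelled Naive, with no treatment, Cre or altered allele given for them. The 5 exposed arrays are labelled Emu-Myc lymphoma exposed and come from mice to which Eµ-Myc lymphoma cells were transferred, with tumour cells making up on average 10 to 36% of lymphocytes in the spleen. In Eµ-Myc lymphoma an immunoglobulin heavy chain enhancer drives Myc in cells of the B lineage, so the transgene belongs to the tumour and not to the sorted dendritic cells. Neither age nor sex is stated, nor whether each array holds 1 mouse or a pool. All p-values therefore measure only the spread between these samples, which may be technical. Exposed arrays are numbered 1, 2, 3, 4 and 6, after their titles.

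As background, ribosomes are built in the nucleolus. RNA polymerase I transcribes the ribosomal RNA precursor, small nucleolar ribonucleoproteins guide its chemical modification, and a chain of assembly factors folds and trims it into a small and a large subunit. Myc is known to raise transcription of much of this machinery, and of the enzymes that supply nucleotides and polyamines to growing cells. It does so as a partner of Max, and the pair binds the E-box, CACGTG, while Mxd proteins, Mnt and Mga compete for Max and act against Myc. In the spleen, dendritic cells are short-lived and are renewed in part by division.

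The E-box was looked up in the RefSeq promoter windows of the GRCm38.p6 assembly, which run from 250 bases before to 50 bases after each gene's start. Windows were given for 29 of the 35 genes, and 7 of the 29 (24.1%) held CACGTG, against 8.09% of the 27025 genes in the table. The related CACGCG, on either strand, was in 10 of the 29 (34.5%), against 10.5% of all genes. CACGTG is its own reverse complement, CACGCG and its reverse complement CGCGTG can overlap, and genes rather than sites were counted. Upstream of the start alone, CACGTG was in 2 of the 29 (6.9%) and in 6.86% of all genes, so 5 of the 7 genes carried it just after the start. A match is a description of the letters and not a measured binding site. The 7 matches are shown with up to 12 bases on each side, 5′ to 3′ on the strand of the gene, with the E-box in capitals, because they are where the best-known Myc letters stand in these genes. The stretch of Nop2 is chr6:125131811-125131840 on the plus strand, with the E-box beginning 60 bases before the start. That of Sms is chrX:157492466-157492495 on the minus strand (196 bases before). The other 5 lie after the start: Pes1 at chr11:3963965-3963994, plus strand (2 bases after), Wdr43 at chr17:71616220-71616249, plus strand (17 after), Tsr1 at chr11:74898092-74898121, plus strand (24 after), Utp20 at chr10:88826765-88826789, minus strand (37 after), and Mybbp1a at chr11:72441355-72441376, plus strand (40 after).
Nop2: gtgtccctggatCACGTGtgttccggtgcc
Sms: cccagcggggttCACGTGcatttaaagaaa
Pes1: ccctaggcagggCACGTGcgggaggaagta
Wdr43: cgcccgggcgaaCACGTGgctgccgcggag
Tsr1: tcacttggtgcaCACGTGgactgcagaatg
Utp20: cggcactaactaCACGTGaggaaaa
Mybbp1a: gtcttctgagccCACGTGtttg

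The full upstream part of the Nop2 window (250 bases, chr6:125131633-125131882, plus strand, E-box in capitals) is given because Nop2 is the measured gene with an E-box before its start.
Nop2: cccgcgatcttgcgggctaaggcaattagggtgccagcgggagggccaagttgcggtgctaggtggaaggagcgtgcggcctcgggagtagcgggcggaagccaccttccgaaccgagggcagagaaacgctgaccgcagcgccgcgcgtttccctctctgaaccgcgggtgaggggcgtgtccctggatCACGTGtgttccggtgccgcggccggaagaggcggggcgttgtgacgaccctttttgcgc

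Values are log2 expression from a 1-colour array, 1 value per probeset and array, so a difference of 1 is a doubling. Differences are exposed minus naive from limma, with its standard error (SE) and a p adjusted by Benjamini-Hochberg over all 22180 genes, and a gene was called at an adjusted p under 0.05. All 32 members lay above 5.60, the 95th percentile of 1088 olfactory receptor genes that served as a mark of dim genes. The sort marker Itgax was high in both groups, at 12.11 ± 0.08 (SD, n = 6) and 11.98 ± 0.13 (SD, n = 5). Its difference was -0.14 (adjusted p = 0.359), and 3 exposed arrays lay below all naive arrays. Of the 9 measured defining genes of dendritic cells, Clec10a alone was dim and Cd209a was called lower. Only 2 of the 9 were positive, with a median difference of -0.065. The mean level of this list was 10.80 to 10.92 in naive arrays and 10.62 to 10.83 in exposed arrays. The B cell genes Cd79a and Ms4a1 were above the mark in both groups and did not pass (0.36, adjusted p = 0.452, and -0.21, adjusted p = 0.506). In sorted bulk cells, a change in the share of a cell type and a change of RNA per cell cannot be told apart.

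The ribosome biogenesis and Myc target genes differed by at most 0.30 between exposed and naive dendritic cells. None of the 32 was called higher and none lower by limma, where 0.879% and 0.546% of all genes were (1.42% together). At an unadjusted p under 0.05 there were 3, all higher (9.38% of the members, against 12.2% of all genes). For none of the 32 did the 5 exposed arrays lie clear of the 6 naive arrays, which they did for 2.29% of all genes. These shares are larger among the 12646 genes above the dim mark, where all members lie. Of those genes 186 were called higher and 117 lower. At an unadjusted p under 0.05, 1291 were higher and 878 lower, and for 285 and 177 the exposed arrays lay clear above and below. The median difference was 0.077, or 1.05-fold, beside 0.008 over all genes and 0.014 over the 12646 genes above the dim mark.

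The intervals concern the array values of the 1 probeset used for each gene. They rest on the spread between these samples, which may be technical, so they do not bound a difference between mice. The 95% limits of limma, taken gene by gene, ran from -0.30 at the lowest to 0.50 at the highest, and for all 32 members they lay inside a 1.5-fold change in either direction. For 27 of the 32 they lay inside a 1.25-fold change. The limits included 0 for 29 members and lay above it for Srm, Wdr12 and Rrp9. Differences of 23 members were under 0.1 in size.

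Most of these small differences were positive. That held for 27 of the 32 members, against 53.5% of all genes and 55.4% of the genes above the dim mark. Members vary together from array to array, so this count was not tested. The sign of such small differences is relative to the scaling. A common 75th percentile lowered the difference of every gene by the same amount, so that the median of all genes was -0.030 and that of the members 0.039, with 22 positive and with Polr1b, Pes1, Bop1, Nop2 and Odc1 below 0. With the deposited scaling the median was 0.041 without exposed array 6 and 0.050 without naive array 2. With the mean of the B cell markers as a covariate it was 0.038.

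**Figure D1:**
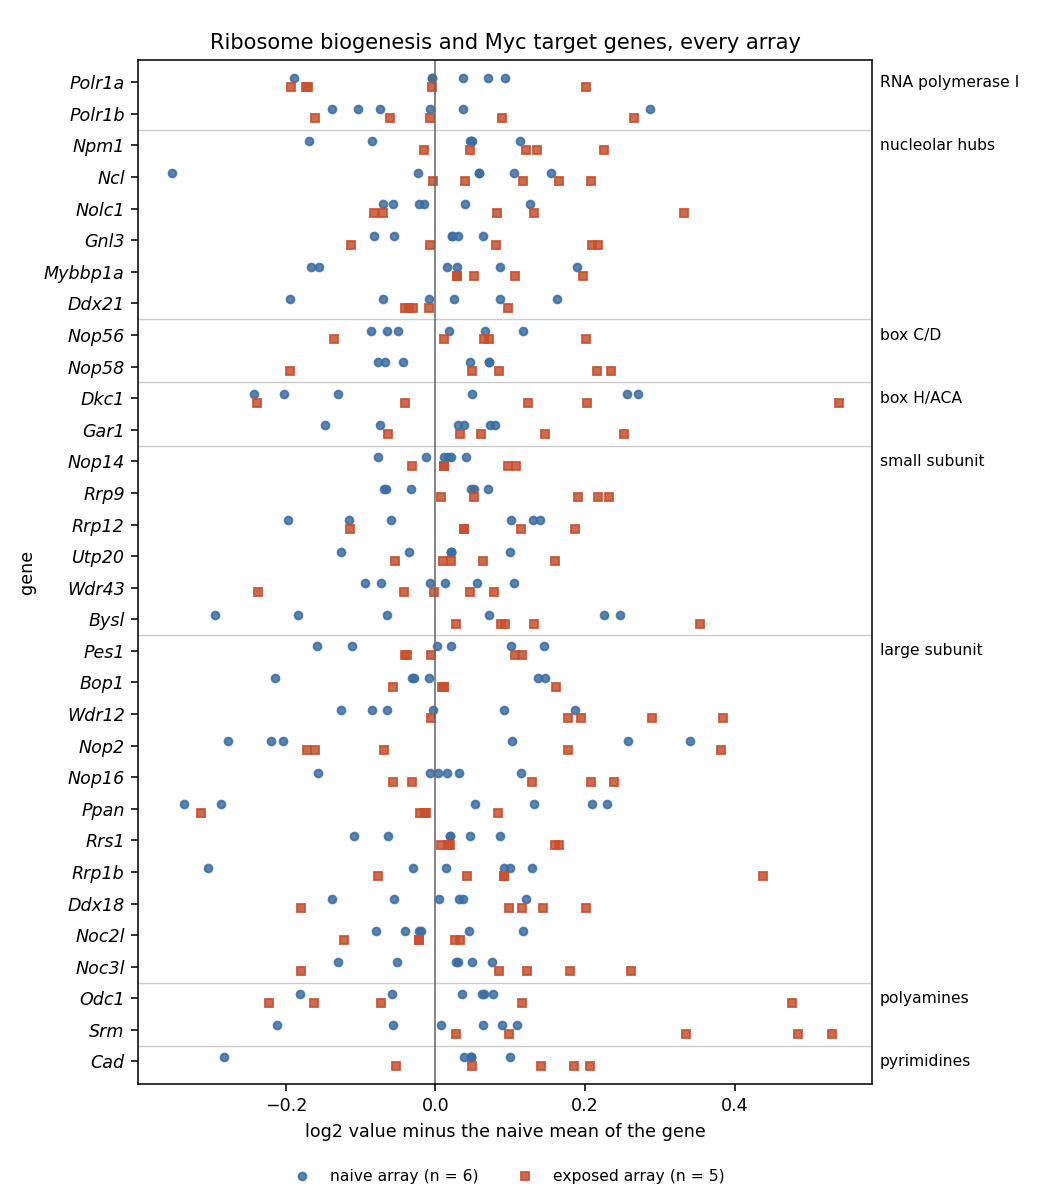
Each point is 1 array: the log2 value of a gene minus that gene's mean over the naive arrays (x axis), with genes in rows grouped by role. Circles are the 6 naive arrays and squares the 5 exposed arrays. In every row the groups overlap. In the rows of Srm, Wdr12 and Rrp9, 3 exposed arrays lie to the right of all naive arrays and the others do not.

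The polyamine enzymes held the member with the largest difference. Srm encodes spermidine synthase, which makes spermidine from putrescine. Its naive arrays ran from 8.92 through a median of 9.17 to 9.24, and its exposed arrays 1, 2, 3, 4 and 6 stood at 9.23, 9.62, 9.66, 9.16 and 9.47. Exposed arrays 2, 3 and 6 were thus above every naive array, and exposed 1 and 4 lay within the naive range. The difference was 0.30 ± 0.09 (SE; adjusted p = 0.176), or 1.23-fold. Arrays numbered 1 to 3 alone gave 0.28 and those numbered 4 to 6 gave 0.27, and no left-out array brought it past the threshold (lowest adjusted p 0.0789, without exposed 4).

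Odc1, ornithine decarboxylase, which makes the putrescine that Srm uses, had a naive mean of 9.54 ± 0.10 (SD, n = 6), and the exposed mean was 9.57 ± 0.28 (SD, n = 5). Its exposed arrays were spread widely, at 9.66, 9.38, 10.02, 9.47 and 9.32, with exposed 1 and 3 above and exposed 6 below the naive range of 9.36 to 9.62. The difference was 0.03 ± 0.11 (SE) and the adjusted p was 0.957. The antizyme gene Oaz1, whose product sends ornithine decarboxylase to the proteasome, had the largest difference among 6 measured genes of polyamine breakdown and control (0.28 ± 0.10 SE, adjusted p = 0.261). None of those 6 was called.

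Cad encodes the enzyme that carries out the opening steps of pyrimidine synthesis. Its exposed arrays read 7.47, 7.66, 7.72, 7.57 and 7.70, and its naive arrays ran from 7.24 through 7.57 to 7.62. The lowest naive value, from naive 2, stood apart from the other naive arrays, of which the next was at 7.56. Exposed 2, 3 and 6 were above all naive arrays, and the difference was 0.11 ± 0.08 (SE; adjusted p = 0.653), or 0.049 without naive 2. Umps, which completes the same pathway, differed by 0.27 ± 0.08 (SE; adjusted p = 0.123), and 4 exposed arrays exceeded its whole naive range. It passed in a fit that held arrays 1 to 3 and 4 to 6 as blocks (0.29, adjusted p = 0.0427) and without exposed array 1 (0.33, adjusted p = 0.0396). Of the 13 measured nucleotide synthesis genes outside the members, 11 were positive, 4 had an unadjusted p under 0.05 and none was called.

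Assembly factors of the large subunit formed the biggest group, with 11 members. Wdr12 works with Pes1 and Bop1 in the PeBoW complex, which is needed to process the RNA of the large subunit. The naive arrays of Wdr12 ran from 7.24 through 7.33 to 7.55, and its exposed arrays read 7.36, 7.75, 7.56, 7.54 and 7.66. Exposed 2, 3 and 6 exceeded all naive arrays, exposed 3 by very little. The difference was 0.21 ± 0.08 (SE; adjusted p = 0.265).

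The limits of its partners included 0. Pes1 stood at 10.40 ± 0.12 (SD, n = 6) and 10.43 ± 0.08 (SD, n = 5), a difference of 0.03 with 95% limits of -0.10 and 0.16. Bop1 stood at 8.54 ± 0.13 and 8.57 ± 0.08, a difference of 0.03 with limits of -0.12 and 0.17. For both genes the exposed arrays lay almost wholly inside the naive range.

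None of the other large subunit factors passed. Nop16, Noc3l, Ddx18 (an RNA helicase), Rrs1 and Rrp1b differed by 0.10, 0.09, 0.08, 0.07 and 0.12, with adjusted p-values from 0.639 for Nop16 to 0.748 for Ddx18. For Noc3l 4 exposed arrays, at 8.57 to 8.74, were above all naive arrays, whose highest was 8.56, while exposed 1 was below all of them at 8.30. Ddx18 had the same low exposed 1, at 8.97 against 9.25 or more in the other 4 exposed arrays. Nop2, a cytosine methyltransferase of ribosomal RNA, differed by 0.03 (adjusted p = 0.959), Ppan by -0.06 and Noc2l by -0.02. The other probeset of Ppan gave 0.09, also far from the threshold.

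Among small subunit factors, Rrp9 had the lowest p. Rrp9, which binds a small nucleolar RNA needed for the early cuts of the precursor, ran from 7.24 through 7.32 to 7.38 in naive arrays and read 7.32, 7.54, 7.53, 7.36 and 7.50 in exposed arrays. Again exposed 2, 3 and 6 were the high ones. The difference was 0.14 ± 0.06 (SE; adjusted p = 0.344), or 1.10-fold. Bysl, a factor needed for small subunit maturation, differed by the same 0.14 but with a larger error (SE 0.10, adjusted p = 0.659): its naive arrays spanned 7.31 to 7.85, and arrays 1 to 3 gave a difference of 0.29 where arrays 4 to 6 gave 0.009.

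The remaining small subunit members were Nop14 (0.04), Rrp12 (0.05), Utp20 (0.04) and Wdr43 (-0.03). Nop14 was the steadiest of all members, with a pooled SD between arrays of 0.05 and 95% limits of -0.06 and 0.14. Among 41 further small subunit factors, 33 were positive, 3 had an unadjusted p under 0.05 and none was called. Rcl1, an endonuclease-like factor of early processing, led them with 0.29 ± 0.08 (SE; adjusted p = 0.0870), and 4 exposed arrays were higher than any naive one. Among 38 further large subunit factors, 27 were positive and none was called. Pelp1 led them with 0.26 ± 0.11 (SE; adjusted p = 0.310), and passed once arrays 1 to 3 and 4 to 6 were held as blocks (0.30, adjusted p = 0.00777).

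Of the 6 hub proteins of the nucleolus, 5 had positive differences. Npm1, the histone and ribosome chaperone nucleophosmin, read 10.71, 10.65, 10.80, 10.78 and 10.88 in exposed arrays, against 10.49 through 10.71 to 10.77 in naive arrays. Exposed 3, 4 and 6 were above all naive arrays, the difference was 0.10 ± 0.06 (SE) and the adjusted p was 0.543. Its other probeset gave -0.03. Ncl, nucleolin, which binds the nascent ribosomal RNA, differed by 0.11 ± 0.08 (SE; adjusted p = 0.678), and its naive 2 array, at 10.23, was far below the other 5, which read 10.56 or more. Without naive 2 the Ncl difference was 0.035.

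Nolc1, a shuttling chaperone of small nucleolar particles, Gnl3, the GTPase nucleostemin, and Mybbp1a, a nucleolar partner of Myb, each differed by 0.08. Nolc1 and Gnl3 shared a pattern over the exposed arrays, with exposed 3 highest or level with the highest (9.54 and 9.21) and exposed 1 and 4 low (9.12 and 9.14 for Nolc1, 8.99 and 8.88 for Gnl3). Ddx21, a helicase of ribosomal RNA transcription and processing, had the smallest difference of all members (-0.004, 95% limits -0.13 and 0.13). The other, dimmer probeset of Ddx21 gave -0.06.

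RNA polymerase I was represented by its catalytic subunits. Polr1a was the most negative member, at -0.07 ± 0.08 (SE; adjusted p = 0.805). Exposed 1, 2 and 3 lay close to the lowest naive array (naive 2, at 8.98), exposed 4 was above all naive arrays at 9.37 and exposed 6 read 9.16, while the other 5 naive arrays lay between 9.16 and 9.26. Polr1b differed by 0.03 (limits -0.17 and 0.22). Of 10 further polymerase I genes and factors, 4 were positive and none was called, with the largest difference in Taf1d (-0.16, adjusted p = 0.693, and -0.031 without exposed 1).

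The particles that modify ribosomal RNA gave small positive values. Nop56 and Nop58, the paired core proteins of box C/D particles that direct methylation, differed by 0.04 and 0.08, and exposed 6 was the highest array for each (10.47 and 10.01). Of the other probesets of Nop56, one gave 0.005 and one -0.33 (adjusted p = 0.417 over all probesets). Averaged per array, its probesets differed by -0.09. For the box H/ACA particles, which direct pseudouridylation, Dkc1 encodes the enzyme dyskerin and Gar1 a core partner. For Dkc1 the difference was 0.12 ± 0.13 (SE; adjusted p = 0.807), from 0.011 without exposed 6 to 0.21 without exposed 1, and for Gar1 it was 0.09 ± 0.07 (SE; adjusted p = 0.681). Nhp2, a further H/ACA core protein, led the 10 assembly and core factors outside the members with 0.17 ± 0.06 (SE; adjusted p = 0.190), and 8 of those 10 were positive.

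**Figure D2:**
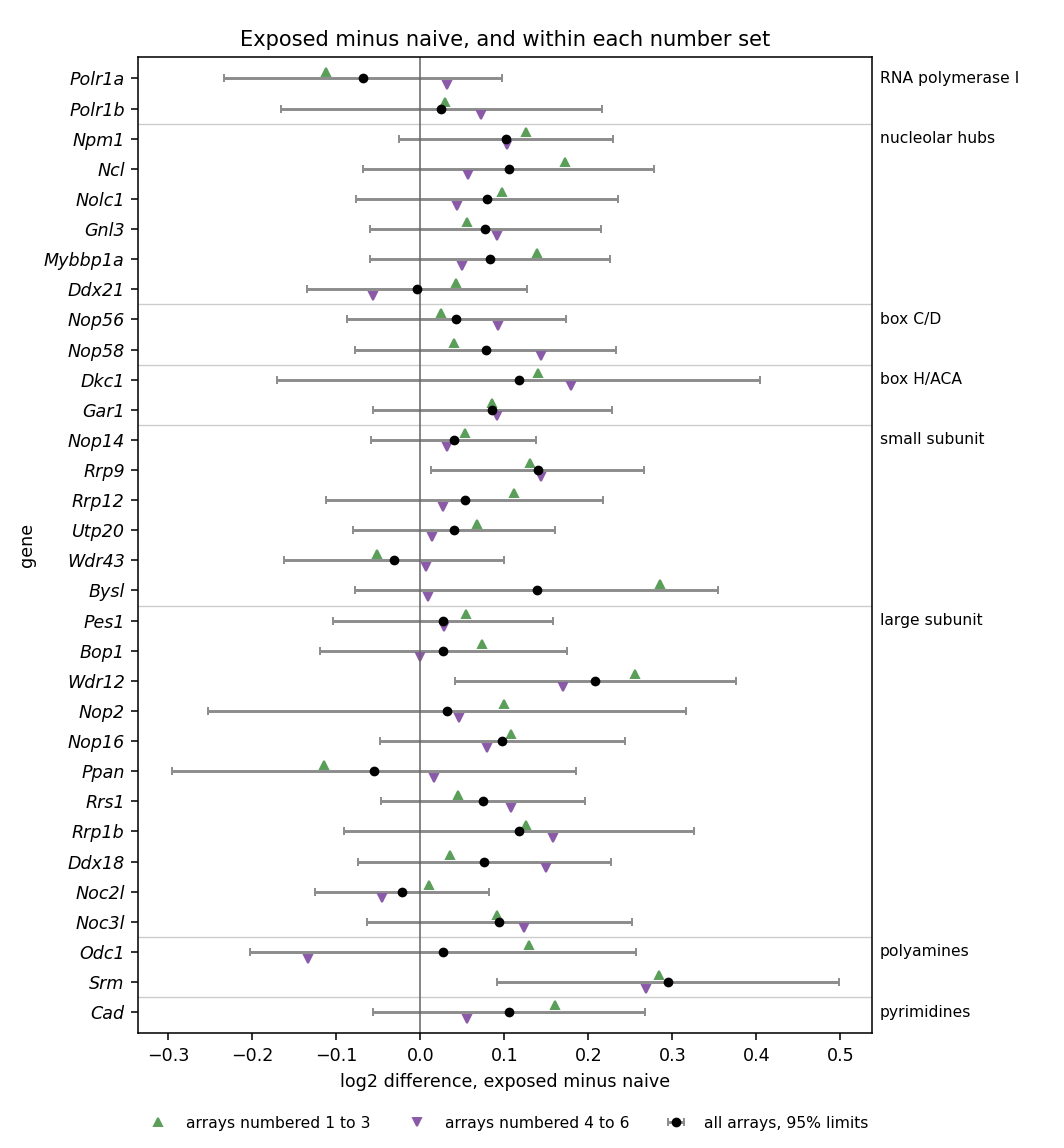
Black points are log2 differences, exposed minus naive, with limma's 95% limits; upward triangles are the same difference within arrays numbered 1 to 3 and downward triangles within arrays numbered 4 to 6. The limits of 29 of the 32 members cross 0, those of Srm, Wdr12 and Rrp9 do not, and all stay between -0.30 and 0.50.

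An E-box in the window did not go with a larger difference among these genes. The 5 measured members with CACGTG in the window (Nop2, Pes1, Wdr43, Utp20 and Mybbp1a) had a median difference of 0.032, with a range from -0.03 to 0.08. The 22 measured members whose windows lacked it had a median of 0.078, with a range from -0.07 to 0.21. The 9 measured members with CACGCG on either strand, some of which also hold CACGTG, had a median of 0.027 (range -0.06 to 0.14). The 15 with neither motif had a median of 0.086 (range -0.07 to 0.21). Srm, the member with the largest difference (0.30), had no window given, nor had Npm1, Rrp12, Bop1 and Rrs1, so they are in none of these sets. With so few genes the comparison is given as a description and was not tested.

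The members also varied together from array to array. Each member was set against its own mean over the 11 arrays, and the median of these deviations over the members was taken for each array. It was highest in exposed 6 (0.143) and exposed 3 (0.085), and lowest in naive 2 (-0.102), exposed 1 (-0.101) and naive 1 (-0.075). The other arrays lay between -0.010 and 0.044. Exposed 6 was the highest of the 11 arrays for 12 members and exposed 3 for 7, while naive 2 was the lowest for 9 and naive 1 and exposed 1 for 8 each. The same median over all genes above the dim mark lay between -0.019 and 0.017 in every array. Normalisation between arrays holds a median over so many genes near 0, so it is no measure of how other short lists vary. How often each array was highest or lowest over all genes was not counted.

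Markers of dividing cells and of macrophages also differed between these arrays. All 24 measured cell cycle genes were positive and 9 were called higher, and the mean level of the list was 8.89 to 9.20 in naive arrays and 9.17 to 9.64 in exposed arrays. Its lowest array was naive 2, its lowest exposed array was exposed 1 and its highest was exposed 6, as for the members. Other arrays differed in order. Exposed 2 was next highest for the list (9.51), but for the members, at 0.014, it lay below naive 4 (0.041) and naive 6 (0.044). Exposed 1, at 9.17 for the list, was above all naive arrays but naive 4, while for the members only naive 2 was lower. Top2a and Mki67, genes of dividing cells, had differences of 0.36 (adjusted p = 0.0731) and 0.19 (adjusted p = 0.339). Top2a passed with the number sets as blocks (0.38, adjusted p = 0.0229), where 13 of the 24 were called, and without exposed array 1 (0.45, adjusted p = 0.00952). The red pulp macrophage list was at 10.98 in exposed 1 and 10.03 in exposed 2, against 8.40 to 9.59 in naive arrays and 9.09 to 9.27 in the other exposed arrays. Its median difference was 0.73, or 1.66-fold, and 9 of its 10 genes were positive, 7 with an unadjusted p under 0.05. None of the 10 was called and none was dim.

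The B cell list, which would follow lymphoma or normal B cells left in the sort, had overlapping levels, 7.16 to 7.34 in naive and 7.07 to 7.34 in exposed arrays. Of its 11 measured genes 6 were positive, Cd22 was called lower, and Vpreb3 was dim. Plasma cell genes, of which Tnfrsf17 was dim, ranged from 5.88 to 6.35 in naive and from 6.16 to 6.44 in exposed arrays, T cell genes from 5.75 to 5.94 and from 5.76 to 6.03, and NK cell genes from 5.62 to 5.79 and from 5.77 to 6.00. The T cell genes Cd3e, Cd3d, Cd3g and Cd28 and the NK cell genes Klrb1c, Eomes and Gzma were dim, while the NK cell gene Ncr1 was called higher. Plasmacytoid dendritic cell genes ranged from 7.89 to 8.25 and from 8.13 to 8.47. Neutrophil genes stayed near background, with 6 of 7 dim, and for red cell precursors only Klf1 was measured, and it was dim. What part these cells have in the values of the members was not tested. Without exposed array 1, the array with the most macrophage signal, the median of the members was 0.097 and 31 were positive, and still none was called. Without exposed array 2, the next highest for the macrophage list, the median was 0.075 and 28 were positive, beside 0.077 and 27 with all arrays.

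**Figure D3:**
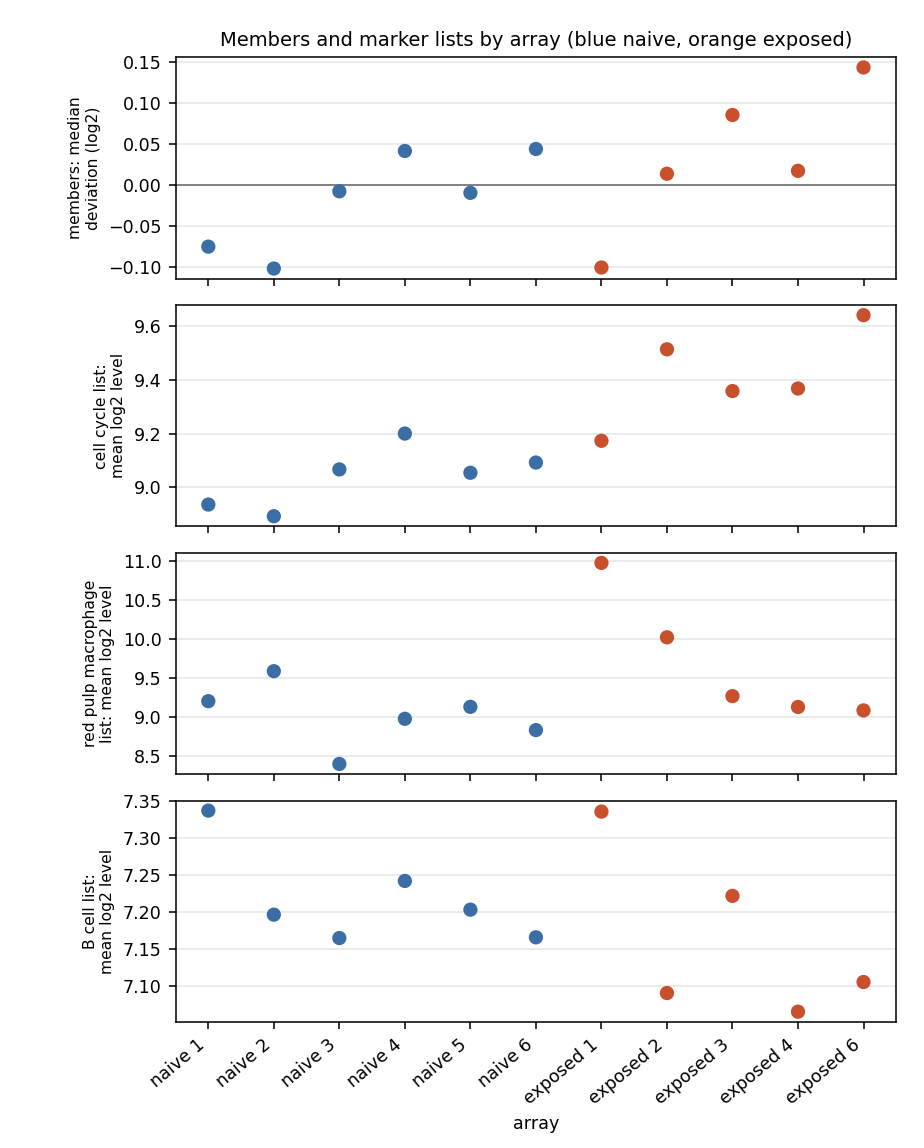
Each column is 1 array, blue for naive and orange for exposed; from the top, the panels show the median deviation of the 32 members from their own means, and the mean log2 levels of the cell cycle, red pulp macrophage and B cell lists. Exposed 6 is highest for the members and the cell cycle list, naive 2 is lowest for both, and exposed 1 is highest for the macrophage list. Exposed 2 is next highest for the cell cycle list but lies below naive 4 and naive 6 for the members.

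Arrays numbered 1 to 3 and 4 to 6 stood apart in naive and exposed cells alike, and no label says what the numbers mark. The number sets hold 3 naive and 3 exposed, and 3 naive and 2 exposed arrays, so they are not confounded with exposure. Within the sets the median difference of the members was 0.089 and 0.056, and 26 of the 32 were positive in both, against 37.1% of genes above the dim mark. In a fit with these sets as blocks the median was 0.075 and none was called, against 2.78% of all genes. Of the 12646 genes above the dim mark, 346 were called higher and 247 lower in that fit. The smallest adjusted p of a member was then 0.108, for Srm. No gene passed a limma test of whether the exposed-minus-naive difference itself differed between the sets, and none of the members had an unadjusted p under 0.05 in that test, against 4.25% of all genes.

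Some members differed between the number sets beyond the spread of arrays. Nop2 was 0.44 higher in arrays 4 to 6 with group held fixed (adjusted p = 0.00295). Its arrays 1 to 3 read 9.36, 9.42 and 9.43 in naive and 9.46, 9.48 and 9.57 in exposed cells, and its arrays 4 to 6 read 9.98, 9.74 and 9.89 in naive and 9.81 and 10.02 in exposed cells. The sets did not overlap, while the groups overlapped almost wholly. Dkc1 was 0.40 higher in arrays 4 to 6 (adjusted p = 0.0185) and Rrp12 0.21 higher (adjusted p = 0.0408). For Dkc1, arrays 1 to 3 read 8.50, 8.54 and 8.61 in naive and 8.51, 8.70 and 8.87 in exposed cells, and arrays 4 to 6 lay between 8.79 and 9.02 in naive and read 8.95 and 9.28 in exposed cells. Its naive sets did not overlap, and exposed 3 reached above naive 5. These 3 of 32 compare with 2.64% of all genes called higher in arrays 4 to 6, and none of the members was among the 0.658% called lower. Among the 12646 genes above the dim mark, where all members lie, the share called higher was larger, with 575 called higher and 118 lower. In all 24 members were higher and 8 lower in arrays 4 to 6, where 7152 of those 12646 genes were higher. The sets had been noticed on these same arrays before they were tested.

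**Figure D4:**
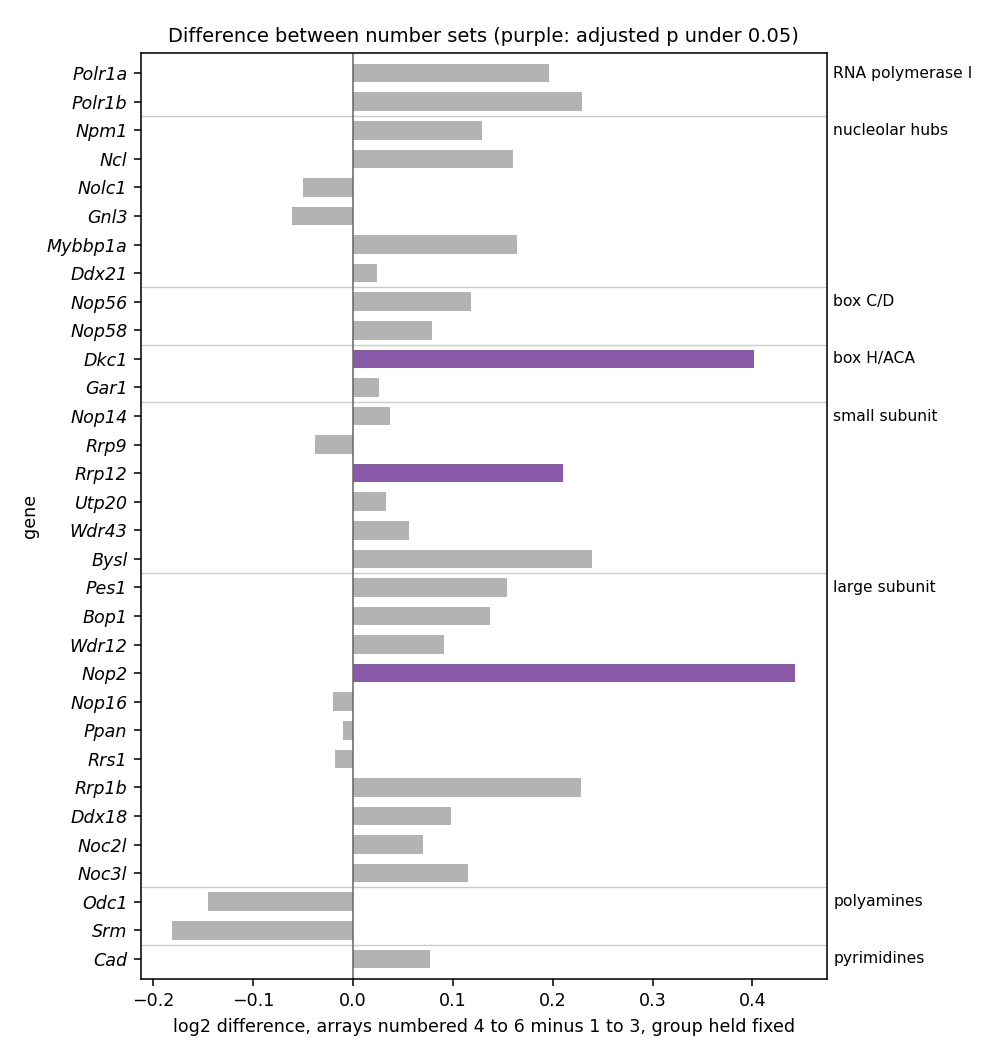
Bars show the log2 difference of each member between arrays numbered 4 to 6 and 1 to 3 with group held fixed; purple bars have an adjusted p under 0.05. Nop2, Dkc1 and Rrp12 are purple, at 0.44, 0.40 and 0.21, and Srm and Odc1 have the most negative bars.

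Myc itself read 8.84, 8.97, 9.38, 9.08 and 8.98 in exposed arrays and ran from 8.49 through 8.93 to 9.19 in naive arrays. Only exposed 3 was above all naive arrays, and the difference was 0.13 ± 0.13 (SE; adjusted p = 0.759), with 95% limits of -0.14 and 0.40. It was 0.046 without naive 5 and 0.050 without exposed 3. The probeset cannot separate the transgene from the cells' own Myc. Max, the partner of Myc, had a difference of 0.11 (adjusted p = 0.563), and that of Mycl was 0.08 (adjusted p = 0.826). Mycn differed by 0.18 but was dim, at 5.44 and 5.62.

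Among the antagonists, Mxd4 had the largest negative difference of the network. Its exposed arrays read 8.86, 8.76, 8.42, 8.62 and 8.68, all below the naive arrays, which ran from 8.87 through 8.91 to 9.05. The highest exposed and the lowest naive array nearly met, and the difference was -0.26 ± 0.07 (SE; adjusted p = 0.0983). It passed with every array shifted to a common 75th percentile, which lowers all differences alike (-0.30, adjusted p = 0.0496) and without exposed array 1 (-0.31, adjusted p = 0.0432). Mga differed by -0.21 ± 0.08 (SE; adjusted p = 0.270), Mnt by -0.08, Mxi1 by -0.06, Mxd3 by 0.12 and Mxd1 by 0.02. The related Mlx, Mlxip and Mlxipl differed by 0.05, -0.08 and 0.09, and Mlxipl was dim. None of the 13 genes of the network was called by limma; 3 had an unadjusted p under 0.05, 1 higher (Mycn) and 2 lower (Mxd4 and Mga).

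Ribosomal proteins, the parts that this machinery assembles, showed no shift by their median. The 67 genes of cytosolic ribosomal proteins had a median difference of -0.002, 32 were positive, and none had an unadjusted p under 0.05. The largest difference among them was that of Rps23 (0.18, adjusted p = 0.558). Of 11 measured translation factors, 6 were positive and none was called, with the largest difference in Eif4ebp1, an inhibitor of cap-dependent translation (0.24 ± 0.08 SE, adjusted p = 0.161). Over all 209 measured genes of the pathway lists outside the members, 134 were positive, 14 were higher and 2 lower at an unadjusted p under 0.05, none was called, and the median difference was 0.028.

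**Figure D5:**
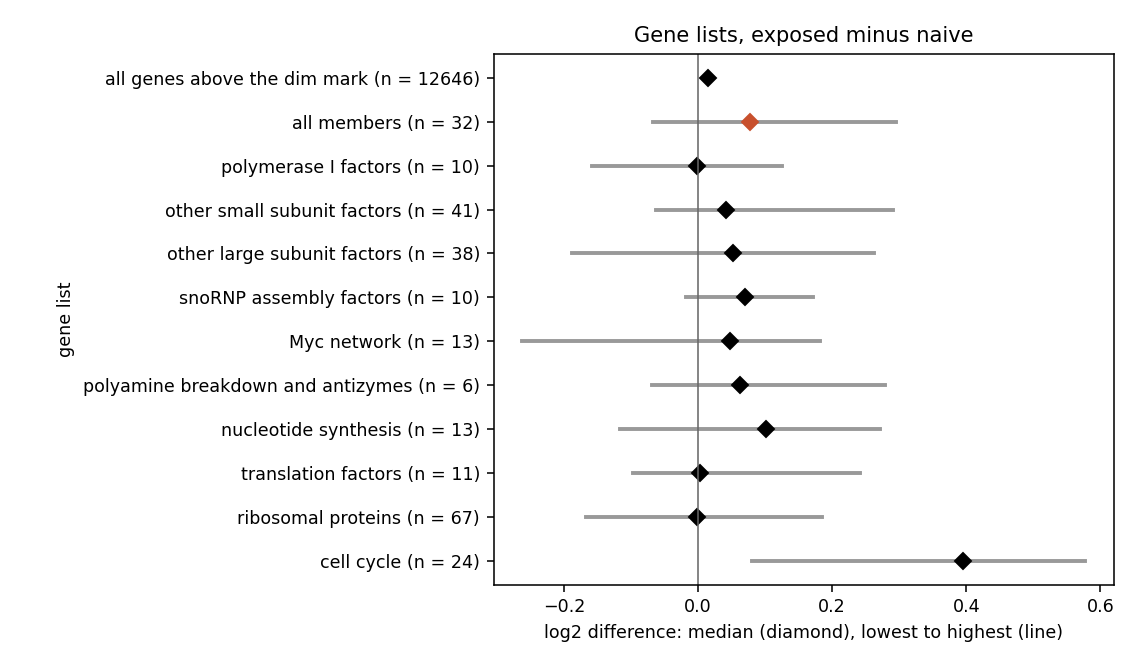
Diamonds are the median log2 difference, exposed minus naive, of each gene list, and lines run from its lowest to its highest gene (not drawn for all genes above the dim mark). The members' median is 0.077, and those of the other ribosome biogenesis lists run from -0.002 (polymerase I factors) to 0.070 (small nucleolar particle assembly). The nucleotide synthesis list, at 0.101, lies above the members. Of the lists drawn, which leave out the markers of other cell types, the cell cycle list has the highest median, 0.394.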

How the data were processed

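The deposited values are log2 expression, made by the authors with RMA per the submitters' processing notes (background correction, normalisation between arrays and summary of probes). Its version and the genome build are not given in the sources used here. Of 41801 probesets, 7329 are blank on every array. The platform table names 1 gene for 23521 of the other 34472 probesets, several for 1814 and none for 9137, and 23328 of them matched the RefSeq table by gene ID, with no symbol changed. The 1-gene probesets gave 22180 genes, with none filtered. Array medians ran from 5.53 to 5.61, and correlations between arrays from 0.989 to 0.996. With arrays, their number limits the precision.

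Differences were fitted over all genes with limma 3.58.1 (lmFit, eBayes with trend) in R 4.3.3, on 6 naive and 5 exposed arrays. The script was tested on simulated data with independent noise. There it called 99% of 100 genes changed by 1 and 78% of 100 changed by 0.5, and 7 of its 184 calls were false. Changes as small as those of the members were not simulated. The members, lists, motifs and tests were chosen with earlier results of these data known. Named are all members, the Myc network, from every other pathway list the called genes or, with none called, the gene with the largest difference, and 5 checks of the sort. Marker genes named as dim or called were picked after their values were seen. Of the listed pathway genes, 11 were not measured alone.

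The last exposed array is numbered 6 in its title and 5 in another label; the title was used. Alternatives were no variance trend, robust fitting, array weights, median centring, another quantile normalisation, a common 75th percentile, no dim genes, averaged probesets, the number or number set as a block, the B cell marker mean as covariate, and leaving out each array in turn.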

Additional observations from a re-analysis of the deposited data

Results flagged for a closer look

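In 9 of the 116 groups of arrays looked at (58 named genes, 2 groups each), 1 array stood far from the rest of its group by Dixon's criterion at the 95% level. Chance alone flags about 1 in 20 such groups. Members made up 7 of the 9, out of 64 groups. Naive array 2 was the low one in 5: Polr1a at 8.98 (nearest array 9.16), Ncl at 10.23 (10.56), Rrp1b at 6.98 (7.25), Cad at 7.24 (7.56) and Top2a at 9.85 (10.04). Exposed array 1 was the low one in 3: Ppan at 8.58 (8.88), Ddx18 at 8.97 (9.25) and Taf1d at 10.87 (11.41). Ddx21 was high in exposed array 3, at 10.10 (9.99). The cause was not tested.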

How the results depend on the processing

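None of the members was called in any of the 23 alternative settings, and the smallest adjusted p of a member in any was 0.0789 (Srm, without exposed array 4). The median difference of the members kept its sign, from 0.038 with the B cell covariate to 0.097 without exposed array 1. The count of all genes called, 316 as reported, was 182 with the replicate number of the label field as a block, a fit that also leaves out naive array 6 (155 without that array and with no block), 617 with number sets as a block, and 104 to 395 with 1 array left out. It fell by over 1.5 times without naive array 1, 2, 3, 5 or 6 or exposed array 2 or 3, and was lowest without exposed 2. A common 75th percentile shifted the median of all genes from 0.008 to -0.030 and turned the split of called genes from 195 higher and 121 lower to 168 higher and 223 lower. Of the pathway genes outside the members none was called as reported, 1 with that percentile (Mxd4), 1 with the title's replicate number as a block (Pelp1), 2 with number sets as a block (Pelp1 and Umps), and 0 to 2 with 1 array left out (Umps and Mxd4 without exposed array 1).

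With group means removed, same-numbered arrays correlated at 0.0880 to 0.231, under 0.1 for number 2, and only exposed arrays 2 and 3 had their closest naive array at their own number, so the numbers were not taken to pair the samples. With the title number as a replicate block, which leaves out naive array 5, the members' median was 0.067, and with the other label's number, which leaves out naive array 6, it was 0.081.

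Small differences changed sign. With a common 75th percentile, which takes the same amount off every gene and so says nothing of single genes, Polr1b was -0.013, Pes1 -0.011, Bop1 -0.011, Nop2 -0.0063, Odc1 -0.011 and Mxd1 -0.015. With a further quantile normalisation Polr1b was -0.015 and Bop1 -0.0014. With the B cell covariate Polr1b was -0.034, Pes1 -0.00032, Bop1 -0.0095 and Nop2 -0.033. With the mean of all probesets Nop56 was -0.095, Ppan 0.017 and Taf1d 0.0070. With replicate blocks Ddx21 was 0.014, Noc2l 0.0015 and Mxd1 -0.00094 (other label), and Odc1 -0.0092 (title). With 1 array left out the ranges that crossed 0 were -0.035 to 0.082 for Polr1b, -0.043 to 0.029 for Ddx21, -0.059 to 0.020 for Wdr43, -0.0043 to 0.056 for Pes1, -0.016 to 0.056 for Bop1, -0.056 to 0.10 for Nop2, -0.12 to 0.0093 for Ppan, -0.038 to 0.0035 for Noc2l, -0.085 to 0.089 for Odc1 and -0.017 to 0.077 for Mxd1. The causes were not tested.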
